A study of Mus musculus with 10 samples.

Results

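Txnip, the 4 alpha-arrestins Arrdc1, Arrdc2, Arrdc3 and Arrdc4, and the Mondo transcription factors Mlxip (MondoA) and Mlxipl (ChREBP) were followed through RNA sequencing of mouse quadriceps muscle. These 7 genes were taken by symbol from the 24063 symbols of the deposited tables, and all 7 had enough reads to be tested. The set was chosen by gene family with the measured differences between 1C-MIM and Control in these libraries already known. Their fold changes and p-values therefore describe these libraries and are no independent support for a direction. The series holds 10 libraries from wild-type (WT) C57BL mice of The Jackson Laboratory, aged 17 to 20 months: 5 Control animals drank the facility's water, and 5 animals drank water with a supplement named 1C-MIM for 1 to 3 months. Both groups had an injury to the tibialis anterior; the sequenced quadriceps came from the same mice and was not injured. Water was given as 150 mL every other day to cages of at most 5 mice. The sources used here do not give the composition of 1C-MIM, nor the litter, cage, sex and library batch of the animals.

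Txnip is an arrestin-fold protein that binds reduced thioredoxin and restrains glucose uptake by promoting the removal of glucose transporters from the cell surface. Its transcription follows intracellular glucose phosphates: the Mondo factors, each paired with the partner protein Mlx, bind carbohydrate response elements in its promoter, and Arrdc4 is another classical target of MondoA. The energy-sensing kinase AMPK phosphorylates Txnip and marks it for degradation. The other alpha-arrestins are adaptors that bring NEDD4-family ubiquitin ligases to membrane proteins. In skeletal muscle Txnip is known as a brake on insulin-stimulated and exercise-stimulated glucose uptake.

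After 1 transcript was kept for each symbol the libraries held 28521254 to 31771296 counts. Levels of single genes are given as counts scaled to library size with TMM factors (CPM). Summed marker levels, here and below, are CPM scaled to the library totals alone, without TMM factors. Those factors were 0.99 to 1.06 in Control and 0.94 to 1.00 in 1C-MIM. Summed muscle fibre markers (Acta1, Ckm, Myh4 and others) reached 179600 to 195300 CPM in Control and 191800 to 208600 CPM in 1C-MIM, which fits the labelled tissue; of these 10 markers 4 were higher in 1C-MIM (Myh4, Myh1, Actn3 and Ttn) and none was lower. Of 10 macrophage markers 8 were lower in 1C-MIM (summed level 179 to 353 CPM in Control and 101 to 154 in 1C-MIM, with none at 0 in all libraries). Of 7 tested lymphocyte markers 4 were lower (summed level 12.4 to 20.4 CPM in Control and 7.91 to 10.3 in 1C-MIM). Of 9 tested satellite cell markers 5 were lower (Myod1, Myog, Vcam1, Tmem8c and Sdc4). Pax7 (-0.14 on the log2 scale, edgeR adjusted p = 0.652) and Myf5 (-0.27, 0.233) did not pass the test. Of 10 fibro-adipogenic markers 7 were lower, and of 10 endothelial markers 5 were higher. Over all 13880 genes tested 9.78% were called higher and 11.8% lower. Some marker calls did not hold once each library's trend with transcript length was removed. Ttn was then at -0.09 on the log2 scale (edgeR adjusted p = 0.434) and Myh4 at 0.16 (0.117). Cd79b, Ly6a, Dpt, Kdr and Tek were also lost (edgeR adjusted p 0.0676 to 0.118). Tnnt3 (0.17, edgeR adjusted p = 0.0221) passed as higher and Itga7 (-0.19, 0.0296) as lower. Control 1 stood apart with a summed neural marker level of 41.7 CPM, against 7.74 to 12.5 CPM in the other 9 libraries, and Control 5 lay farthest out on the first principal component, at -38.6. Each test between the groups was therefore also computed without these 2 libraries. In bulk muscle, fewer cells of a type and less RNA per cell cannot be told apart.

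Txnip was by far the most abundant of the 7 genes. Per length of transcript, in the deposited length-scaled unit (TPM), its mean over the 10 libraries was 246 TPM, rank 198 of the 13880 genes tested. Arrdc2 followed with a mean of 26.2 TPM, Mlxipl with 18.0, Mlxip with 16.4, Arrdc3 with 8.64, Arrdc1 with 3.23 and Arrdc4 with 2.18. Within the Control group the neighbours Arrdc2 (24.1 ± 11.9 TPM, SD, n = 5), Mlxipl (16.7 ± 2.43) and Mlxip (14.5 ± 1.94) had overlapping levels. In 1C-MIM the levels of Mlxipl (19.4 ± 2.98 TPM) and Mlxip (18.4 ± 1.70) again overlapped, and Arrdc2 was at 28.4 ± 4.88. Txnip supplied 83.2 ± 7.92% of the summed TPM of Txnip and Arrdc1 to Arrdc4 in Control and 87.2 ± 2.32% in 1C-MIM, with Control 1 lowest at 70.2%. That summed level was 197 to 267 TPM in Control and 300.3 to 372 TPM in 1C-MIM.

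Against Control, 3 of the 7 genes were higher in 1C-MIM and none was lower: Txnip, Arrdc3 and Mlxip passed an adjusted p under 0.05 in edgeR's quasi-likelihood test over all genes. Over all 13880 genes the share called higher was 9.78% and the share called lower 11.8%, around a median log2 fold change of 0.00. Txnip and Mlxip did not overlap between the groups, where 6.6% of all genes had every 1C-MIM library above every Control library and 7.98% had every one below. Because the set was proposed with this comparison known, nothing is read from 3 of 7 against the share over all genes. Arrdc2 and Mlxipl had positive fold changes and Arrdc1 and Arrdc4 negative ones that did not pass the test. Part of the macrophage, lymphocyte, satellite cell (not Pax7 or Myf5), fibro-adipogenic, endothelial and muscle fibre markers moved with the same groups. Some of them did not once the length trend was removed. Their part in the levels of the 7 genes was not tested.

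**Figure D1:**
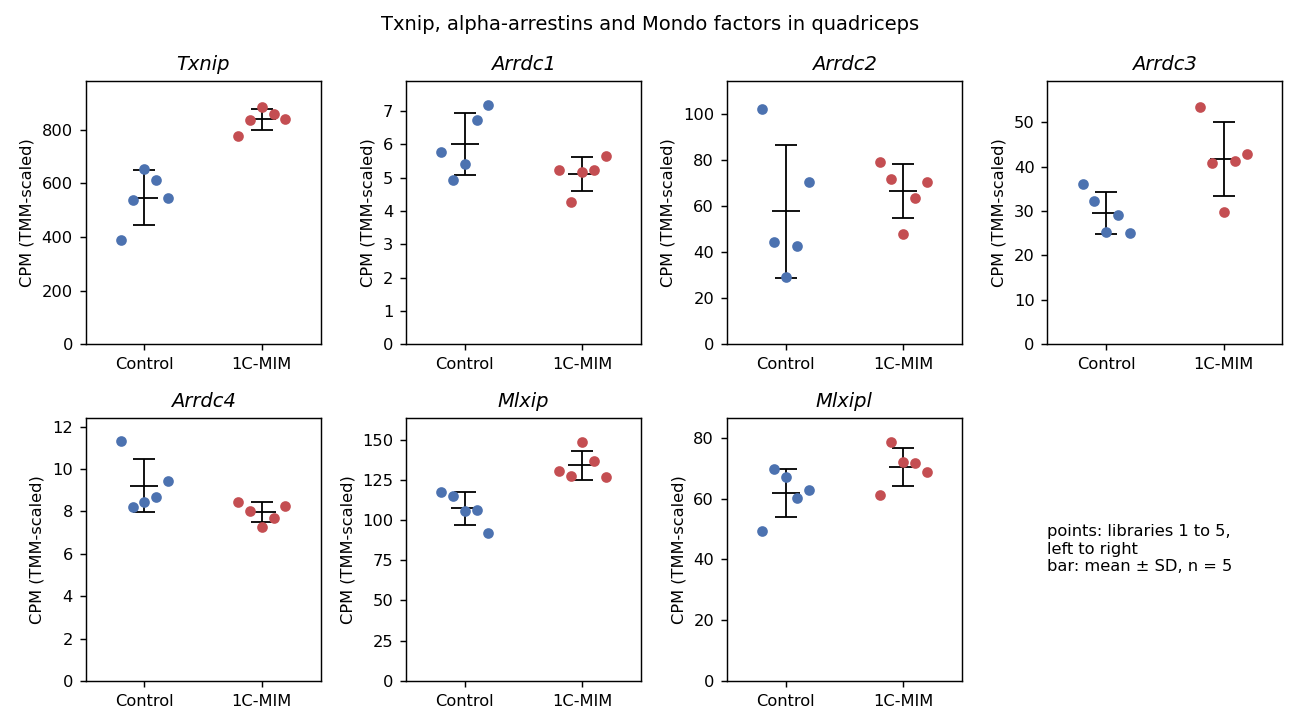
Level of each of the 7 genes in every library, in TMM-scaled CPM on a linear axis from 0, for Control (blue) and 1C-MIM (red). Points are libraries 1 to 5 from left to right and bars are the mean ± SD of 5 libraries; the groups of Txnip and of Mlxip do not overlap, and Control 1 is the lowest Control point for Txnip and the highest for Arrdc2.

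Txnip stood at 388, 537, 655, 614 and 544 CPM in Control 1 to 5 and at 778, 835, 885, 859 and 842 CPM in 1C-MIM 1 to 5. Every 1C-MIM library lay above the highest Control, and the coefficient of variation was 18.6% in Control (9.66% without Control 1) and 4.69% in 1C-MIM. The mean rose from 548 ± 102 to 839.8 ± 39.4 CPM (SD, n = 5 each). The log2 fold change was 0.62 ± 0.11 (standard error; edgeR, adjusted p = 0.00303), a 1.53-fold increase with a 95% interval of 1.32 to 1.78. Without Control 1, the lowest library, the log2 fold change was 0.52, and without Control 1 and Control 5 it was 0.48 (edgeR adjusted p = 0.00184). Animals numbered in the 200s, 3 in each group, differed by 0.69 on the log2 scale and those numbered in the 300s, 2 in each group, by 0.56. Counts of 11326 to 26639 reads a library put the counting error at 0.940% of the level or less. Both Txnip transcripts in the tables had nearly the same counts, 209019 and 209015 over the 10 libraries, so they could not be told apart.

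The upstream window of Txnip is shown because it holds the elements through which Mondo and forkhead factors are known to act on this gene, and that of Arrdc4 because it is the other classical MondoA target and had a fold change of the opposite sign. Both are the 250 bases before the RefSeq start site, in build GRCm38.p6 (the submitters' processing notes name another build, GRCm39), at chr3:96557707-96557956 on the + strand for Txnip and chr7:68749239-68749488 on the - strand for Arrdc4, read 5′ to 3′. Capitals mark, in Txnip, a GTAAACA forkhead motif and a match to the carbohydrate response element (CACGNG, any 5 bases, then CNCGNG), and in Arrdc4 a CACGTG E-box.
Txnip: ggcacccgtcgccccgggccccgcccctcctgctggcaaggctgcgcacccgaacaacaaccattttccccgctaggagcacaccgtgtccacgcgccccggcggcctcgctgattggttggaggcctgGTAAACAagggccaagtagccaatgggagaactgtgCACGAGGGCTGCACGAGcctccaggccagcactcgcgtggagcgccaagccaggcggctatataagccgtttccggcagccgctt
Arrdc4: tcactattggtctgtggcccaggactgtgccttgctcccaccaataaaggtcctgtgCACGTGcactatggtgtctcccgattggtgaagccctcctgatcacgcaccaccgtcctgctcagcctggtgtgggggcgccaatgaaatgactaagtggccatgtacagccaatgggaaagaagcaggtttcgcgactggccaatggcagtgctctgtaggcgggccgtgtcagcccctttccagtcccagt
All 7 genes had a window in the RefSeq table, 10 windows in all with 3 for Arrdc3 and 2 for Mlxipl, and both strands were searched. The carbohydrate response element of Txnip, CACGAGGGCTGCACGAG, begins 85 bases before the start site and the forkhead motif 121 bases before it; neither motif was present in the windows of the other 6 genes. Over all 32851 windows of this length, 0.28% held the carbohydrate response element, 3.17% GTAAACA and 6.02% CACGTG. The Arrdc4 E-box begins 193 bases before the start, and 1 of the Mlxipl windows has a CACGTG at 98 bases. CCAAT, found in 33.8% of windows, occurred 2 times in the Txnip window and 6 times in that of Arrdc4. None of these matches overlapped another of the motifs searched. A match is a description of the letters and says nothing about binding in these muscles.

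Arrdc3, an alpha-arrestin known for ubiquitination of beta-adrenergic receptors and for restraining energy expenditure in adipose tissue, was the other arrestin-fold member that rose. It was at 36.2, 32.3, 25.4, 29.2 and 25.1 CPM in Control 1 to 5 and at 53.5, 40.9, 29.9, 41.3 and 42.8 CPM in 1C-MIM 1 to 5. Of the 5 1C-MIM libraries 4 exceeded the highest Control, while 1C-MIM 3 lay within the Control range. The mean rose from 29.6 ± 4.70 to 41.7 ± 8.38 CPM, a log2 fold change of 0.49 ± 0.14 (standard error; edgeR, adjusted p = 0.0276) or 1.41-fold (95% interval 1.16 to 1.70). The call was lost when any 1 of Control 3, 4 and 5 or of 1C-MIM 2 and 4 was left out (adjusted p 0.0511 to 0.0710 in edgeR, log2 fold changes 0.44 to 0.50). Without Control 1 and Control 5 the log2 fold change was 0.52 (edgeR adjusted p = 0.0569).

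Arrdc2, a less studied alpha-arrestin of the same family, had the widest spread of the 7 genes in Control. Its levels were 102, 44.5, 29.3, 42.9 and 70.5 CPM in Control 1 to 5 and 79.2, 71.9, 48.1, 63.7 and 70.7 CPM in 1C-MIM 1 to 5. Control 1 held the highest level of all and Control 3 the lowest, so the Control range enclosed the whole 1C-MIM range. The log2 fold change was 0.21 ± 0.30 (standard error; edgeR, adjusted p = 0.653), with a fold interval of 0.764 to 1.74 that spans both directions. The coefficient of variation was 50.1% in Control and 17.7% in 1C-MIM, where Arrdc3 had 20.1%. Without Control 1 the log2 fold change was 0.51 (edgeR adjusted p = 0.125), and without Control 1 and Control 5 it was 0.78 and past the threshold (edgeR adjusted p = 0.0251). Without Control 3, the lowest library, the log2 fold change was 0.04 (edgeR adjusted p = 0.930). The size of the fold change of Arrdc2 thus depended on which Control libraries were kept.

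Arrdc4, which like Txnip restrains glucose uptake, had a fold change below 0 that missed the threshold. It was at 11.3, 8.18, 8.43, 8.69 and 9.43 CPM in Control 1 to 5 and at 8.46, 8.04, 7.27, 7.70 and 8.27 CPM in 1C-MIM 1 to 5. In 3 of the 5 1C-MIM libraries the level was below the lowest Control, and Control 1 was the highest library. The log2 fold change was -0.21 ± 0.10 (standard error; edgeR, adjusted p = 0.126), or 0.865-fold with an interval of 0.760 to 0.985; without Control 1 it was -0.13, and without Control 1 and Control 5 -0.09. The ratio of Txnip to Arrdc4 in TPM was 47.8 to 108 in Control and 128 to 170 in 1C-MIM, without overlap. Txnip alone already did not overlap between the groups, so the ratio says nothing separate about Arrdc4. Counts of 219 to 330 reads a library limit the precision of Arrdc4. A second, shorter Arrdc4 transcript in the tables had a count of 41.6% of that of the first and gave a log2 fold change of -0.11. Reads that fit both transcripts are counted for each.

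Arrdc1, which recruits the ESCRT protein Tsg101 to the plasma membrane to bud small vesicles, was a low gene with 124 to 213 reads a library. It was at 5.79, 4.92, 5.40, 6.73 and 7.17 CPM in Control 1 to 5 and at 5.22, 4.26, 5.18, 5.24 and 5.65 CPM in 1C-MIM 1 to 5. The groups overlapped, with Control 4 and Control 5 highest and 1C-MIM 2 lowest. The log2 fold change of -0.23 (SE 0.12) did not pass the test (edgeR adjusted p = 0.169).

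Of the Mondo factors, Mlxip, the form known to prevail in skeletal muscle, rose. It was at 117, 115, 106, 106 and 91.8 CPM in Control 1 to 5 and at 131, 128, 149, 137 and 127 CPM in 1C-MIM 1 to 5. The groups did not overlap, and Control 5 was the lowest library. The mean rose from 107 ± 10.1 to 134 ± 9.04 CPM, a log2 fold change of 0.32 ± 0.07 (standard error; edgeR, adjusted p = 0.00871) or 1.25-fold (95% interval 1.13 to 1.38). Without Control 1 and Control 5 it was 0.30 (edgeR adjusted p = 0.0137).

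Transcript length moved with the fold change of Mlxip. Its transcript of 7304 bases lies in the longest of 10 length classes with equal numbers of genes, where the median log2 fold change was 0.23 and 28.8% of genes were called higher against 1.87% lower. When each library's trend with transcript length was removed, the log2 fold change of Mlxip was 0.13 (edgeR adjusted p = 0.132) and that of Arrdc3, of 4090 bases, was 0.42 (edgeR adjusted p = 0.0851), neither past the threshold. That of Txnip, of 2801 bases in a length class with a median of -0.01, was 0.62 (edgeR adjusted p = 0.00357). The shorter Mlxip transcript of 2649 bases had a count of 14.5% of that of the longer one. Its log2 fold change was 0.60 ± 0.28 (standard error; edgeR, adjusted p = 0.153). Reads that fit both transcripts are counted for each, so this is not a separate measurement. The count relative to the longer transcript was lowest in Control 5, at 5.69%, against 12.2 to 19.5% in the other libraries.

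Mlxipl, the Mondo factor best known from liver and fat, was at 49.3, 69.7, 67.0, 60.3 and 62.9 CPM in Control 1 to 5 and at 61.1, 78.8, 71.9, 71.6 and 68.7 CPM in 1C-MIM 1 to 5. The groups overlapped, and Control 1 was the lowest library, as for Txnip. The log2 fold change was 0.19 ± 0.09 (standard error; edgeR, adjusted p = 0.144), or 1.14-fold with an interval of 1.01 to 1.29. It was 0.12 without Control 1 and 0.10 without Control 1 and Control 5. In TPM the ratio of Mlxip to Mlxipl was 0.882 ± 0.180 in Control and 0.957 ± 0.101 in 1C-MIM, with libraries on both sides of 1 in each group. An exact two-sided permutation test of each of the 7 genes over the 252 assignments of libraries gave p = 0.00794 for Txnip and for Mlxip, the smallest it can give, 0.0238 for Arrdc3, 0.0397 for Arrdc4 and 0.0873 to 0.3175 for the other 3, unadjusted.

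**Figure D2:**
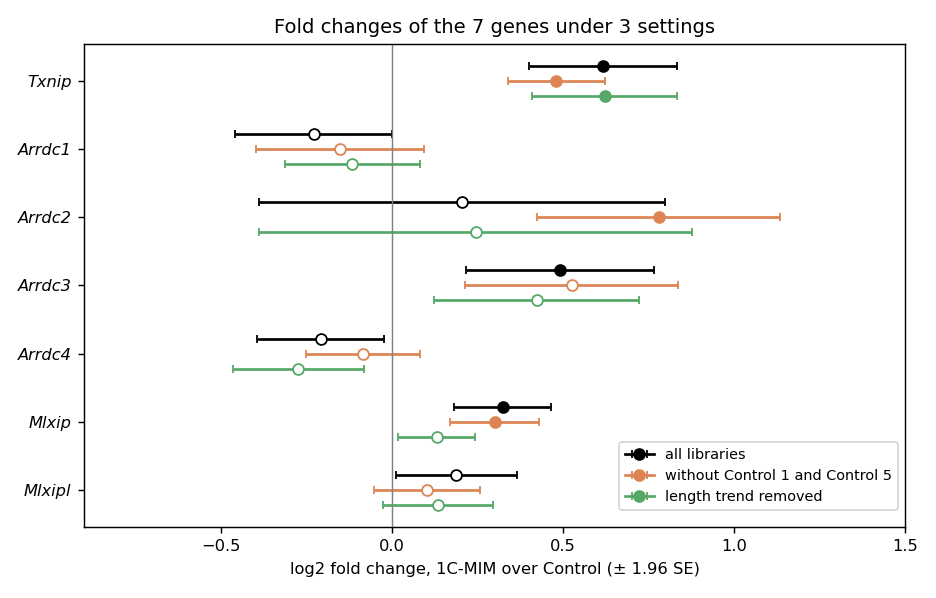
Log2 fold change of 1C-MIM over Control for the 7 genes, with bars over the 95% interval, from edgeR fits on all libraries (black), without Control 1 and Control 5 (orange) and with the length trend of each library removed (green). Filled points have an adjusted p under 0.05: Txnip is filled in each of the 3 settings, Mlxip in 2, Arrdc3 only with all libraries and Arrdc2 only without the 2 Control libraries.

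Within the groups the 7 genes did not vary as a block. After each group was centred on its own mean, Txnip and Arrdc2 varied in opposite directions over the 10 libraries (Pearson r = -0.90, Spearman rho = -0.82, and r = -0.81 without Control 1). Arrdc2 and Arrdc4 varied together (r = 0.91, rho = 0.85, and 0.81 without Control 1). For Txnip and Arrdc4 r was -0.86 (rho = -0.65), and -0.47 without Control 1. For Txnip and Mlxipl r was 0.72 (rho = 0.33), and 0.19 without Control 1. The relations of Txnip with Arrdc4 and Mlxipl thus rested on that library to a large degree. Txnip and Arrdc3, both called higher, varied in opposite directions within the groups (r = -0.63, rho = -0.77, and r = -0.56 without Control 1). For Arrdc4 and Mlxip r was -0.09 (rho = -0.41), and -0.92 without Control 1. The 21 pairs share libraries and their scaling, and the values are descriptions.

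**Figure D3:**
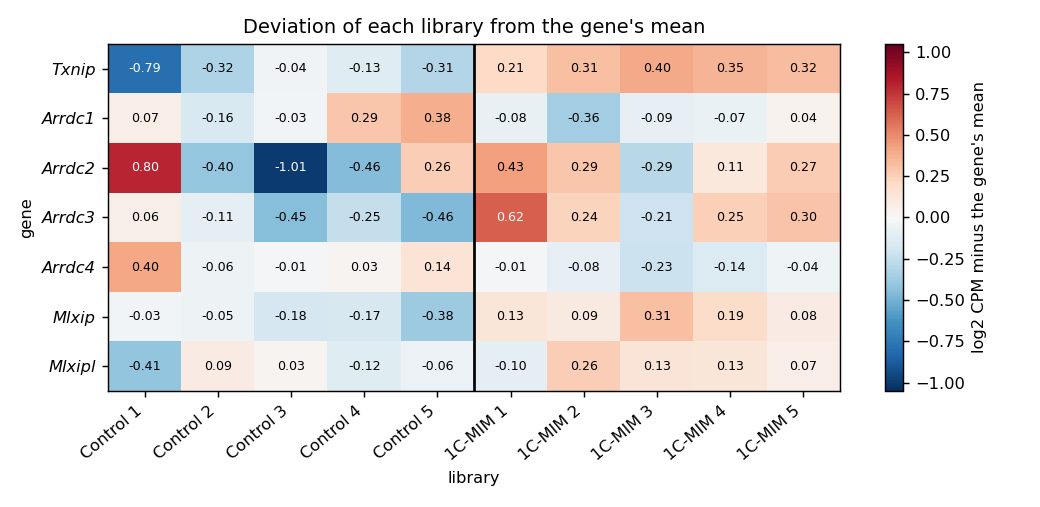
Deviation of each library's log2 CPM from the gene's mean over the 10 libraries (rows are genes, columns libraries, red above and blue below the mean, printed in each cell). Control 1 is lowest for Txnip at -0.79 and highest for Arrdc2 at 0.80 and Arrdc4 at 0.40, and the vertical line parts Control from 1C-MIM.

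Mlx is the obligatory partner of the Mondo factors and part of the wider MAX network of transcription factors. Of 11 listed genes of this network 10 were tested: 2 were higher, none was lower, with a median log2 fold change of 0.00, as for all genes. Beside this list and those below, the shares over all genes were 9.78% called higher and 11.8% called lower. Mxi1, a MAX-binding repressor, rose from 47.0 ± 2.67 to 54.1 ± 2.92 CPM (0.20 on the log2 scale, SE 0.06; edgeR, adjusted p = 0.0255). Mga, a MAX-binding protein of a repressive complex, rose by 0.48 (SE 0.14, edgeR adjusted p = 0.0308). Mlx itself was at 14.1 ± 0.49 CPM in Control and 12.4 ± 0.73 in 1C-MIM, with no overlap and a log2 fold change of -0.18 (SE 0.06) that missed the threshold (edgeR adjusted p = 0.0559) and passed it without 1C-MIM 1 (0.0464). The calls of Mxi1 and Mga lay near the threshold: leaving out Control 3, Control 4 or 1C-MIM 3 ended both (adjusted p up to 0.0604 in edgeR) with fold changes of about the same size (0.18 to 0.20 for Mxi1 and 0.48 to 0.50 for Mga), and leaving out Control 2 ended that of Mxi1 (0.19, edgeR adjusted p = 0.0501). Leaving out 1C-MIM 2 or 1C-MIM 4 ended that of Mga (0.41 and 0.44, edgeR adjusted p = 0.0738 and 0.0752). Neither was called once the length trend was removed (0.09 and 0.13), and Mlx was then at -0.11 (edgeR adjusted p = 0.201).

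Other genes are listed as answering glucose through the Mondo factors. Of 20 listed, 17 were tested, none was called higher and 2 were lower, with a median of 0.01. The count called higher was 0 to 2 over the alternatives. Thrsp, a lipogenic factor, fell from 30.4 ± 4.86 to 20.2 ± 4.13 CPM (-0.59 on the log2 scale, SE 0.14; edgeR, adjusted p = 0.0124). Tkt, the transketolase of the pentose phosphate pathway, fell by 0.34 (SE 0.09, edgeR adjusted p = 0.0213). Hbp1, a transcriptional repressor, stood at 0.15 (SE 0.05) and missed the threshold (edgeR adjusted p = 0.0509). It was called in 10 of 24 alternatives, a count that includes the looser threshold of 0.1. Among them were the fits without Control 1 (edgeR adjusted p = 0.0357) and without 1C-MIM 5 (0.0447). Without Control 1 and Control 5 neither Thrsp nor Tkt passed the test. Thrsp was at -0.42 (edgeR adjusted p = 0.0702) and Tkt at -0.35, about as large as with all libraries (edgeR adjusted p = 0.0560). Tkt also missed the threshold without 1C-MIM 3 (-0.27, edgeR adjusted p = 0.0519) or 1C-MIM 4 (-0.30, edgeR adjusted p = 0.0657). Summed adipocyte markers, scaled without TMM factors, were 1148 to 1433 CPM in Control and 1113 to 1424 CPM in 1C-MIM. That sum covers changes in both directions. Of the 10 markers 2 were higher, Lep (1.42, edgeR adjusted p = 0.0131) and Plin4 (0.50, 0.00778), and 1 was lower, Cfd (-0.82, 0.000179). Plin4 was not called once the length trend was removed (0.36, edgeR adjusted p = 0.0852). Thrsp is strongly expressed in fat, and the part of adipocytes in its level was not tested.

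The thioredoxin system is the redox partner of Txnip. Of 23 genes tested 8 were lower and 1 was higher, and the median was -0.17, or -0.05 with the length trend removed. Msrb1, a selenium-dependent reductase of methionine sulfoxide that thioredoxin recycles, fell from 130 ± 13.3 to 82.8 ± 4.24 CPM without overlap (-0.65 on the log2 scale, SE 0.07; edgeR, adjusted p = 0.000136). Prdx4, a peroxiredoxin of the endoplasmic reticulum, fell by 0.58 (SE 0.13, edgeR adjusted p = 0.00948), and the cytosolic peroxiredoxin Prdx1 by 0.29 (SE 0.07, edgeR adjusted p = 0.0124). Txn1, the thioredoxin that Txnip binds, was chosen after its values were seen: it stood at 45.8 ± 6.66 CPM in Control and 36.4 ± 5.56 in 1C-MIM, a log2 fold change of -0.33 (SE 0.11) that missed the threshold (edgeR adjusted p = 0.0546). The count of decreases was 3 without Control 1 and Control 5, 3 with the length trend removed, and 3 to 5 when any 1 library other than Control 1, Control 2, 1C-MIM 1 or 1C-MIM 5 was left out. Msrb1 passed in each of these fits, while Prdx4 was lost with the length trend removed (edgeR adjusted p = 0.0604) and Prdx1 there (0.0616) and without Control 1 and Control 5 (0.0633).

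Among 22 tested genes of glucose transport and its vesicle traffic, the process that Txnip restrains, 3 were higher and 4 lower, with a median of 0.05. Slc2a3, a high-affinity glucose transporter, rose from 20.3 ± 1.29 to 26.1 ± 2.36 CPM without overlap (0.36 on the log2 scale, SE 0.07; edgeR, adjusted p = 0.00548). Rab8a and Rab13, small GTPases that move transporter vesicles in muscle cells, fell by 0.35 (SE 0.07, edgeR adjusted p = 0.00388) and 0.39 (SE 0.09, edgeR adjusted p = 0.00958). Slc2a4, the insulin-responsive transporter of muscle, was chosen after its values were seen and stood at 575 ± 26.6 CPM in Control and 593.8 ± 18.7 in 1C-MIM (0.05 on the log2 scale, SE 0.05; edgeR, adjusted p = 0.528). With the length trend removed 1 gene of the list was higher and 5 were lower; Slc2a3 was at 0.30 (edgeR adjusted p = 0.0130). Without 1C-MIM 4 there were 2 lower in place of 4.

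For AMPK, which marks Txnip for degradation, 1 of 11 genes was higher and 1 lower, with a median of 0.07. Prkag2, a regulatory gamma subunit, fell from 24.1 ± 1.5 to 14.9 ± 1.3 CPM without overlap (-0.69 on the log2 scale, SE 0.07; edgeR, adjusted p = 0.000110). Prkaa2, the catalytic subunit that prevails in muscle, rose from 228 ± 30.8 to 290.1 ± 36.2 CPM (0.35, SE 0.10, edgeR adjusted p = 0.0284), but was not called once the length trend was removed (0.12, edgeR adjusted p = 0.123) or without any 1 of Control 3, 4, 5 or 1C-MIM 2, 3, 4 (0.29 to 0.35, edgeR adjusted p 0.0509 to 0.0690). Camkk2, an upstream kinase, was at -0.43 (SE 0.15, edgeR adjusted p = 0.0539).

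Alpha-arrestins work with ubiquitin ligases and with ESCRT proteins of vesicle budding. Of 10 tested NEDD4-family ligases and their adaptors 1 was higher and none lower, with a median of 0.09. Wwp1 rose from 203 ± 32.1 to 265 ± 26.3 CPM (0.39 on the log2 scale, SE 0.11; edgeR, adjusted p = 0.0218) and missed the threshold without 1C-MIM 2 (0.35, edgeR adjusted p = 0.0510) or 1C-MIM 4 (0.36, edgeR adjusted p = 0.0555), while Nedd4 was at 0.26 (SE 0.09, edgeR adjusted p = 0.0512) and Hecw2 at 0.57 (SE 0.23, edgeR adjusted p = 0.0858). Nedd4 lay close to the threshold and passed it without Control 1 (edgeR adjusted p = 0.0329), Control 2 (0.0440), 1C-MIM 1 (0.0321) or 1C-MIM 5 (0.0449). With the length trend removed Nedd4 was at 0.12 (edgeR adjusted p = 0.135) and Hecw2 at 0.26 (0.255). Of 14 ESCRT genes, which include the partners of Arrdc1, 1 was higher and 1 lower, with a median of -0.02. Mvb12a, a subunit of ESCRT-I, fell by 0.34 (SE 0.07, edgeR adjusted p = 0.00781) and Vps37a, of the same complex, rose by 0.21 (SE 0.06, edgeR adjusted p = 0.0254), and neither was called with the length trend removed (-0.17 and 0.04). Vps37a was also lost without Control 3 or 4 and without 1C-MIM 2 or 4 (0.18 to 0.21, edgeR adjusted p 0.0554 to 0.0624). Vps28 was at -0.20 (SE 0.07, edgeR adjusted p = 0.0599), and at -0.01 with the length trend removed (edgeR adjusted p = 0.850).

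No other arrestin-fold gene was called higher. Of 8 listed, 5 were tested and 2 were lower, with a median of -0.06; Arrdc5, the remaining alpha-arrestin, had 30 reads over all libraries and was not tested. Arrb2, a beta-arrestin that turns off and internalises receptors, fell from 10.3 ± 1.26 to 7.05 ± 0.47 CPM without overlap (-0.54 on the log2 scale, SE 0.09; edgeR, adjusted p = 0.00230). Dscr3, an endosomal recycling subunit with an arrestin fold, fell by 0.24 (SE 0.08, edgeR adjusted p = 0.0384), but not past the threshold when any 1 library other than Control 2, Control 3, 1C-MIM 1 or 1C-MIM 5 was left out (-0.25 to -0.20, edgeR adjusted p 0.0651 to 0.103). Vps26a, of the retromer, was at 0.07 (SE 0.05, edgeR adjusted p = 0.369). Of 7 tested adrenergic receptors, the class on which Arrdc3 is known to act, none was higher and 1 was lower, with a median of 0.10. Adrb3, the receptor of fat cells, fell from 5.91 ± 1.63 to 3.30 ± 0.49 CPM (-0.83, SE 0.18, edgeR adjusted p = 0.00789), while Adra2b was at 0.55 (SE 0.19, edgeR adjusted p = 0.0546) and Adra1a at 0.34 (SE 0.14, edgeR adjusted p = 0.0831).

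The inflammasome, to which Txnip protein is reported to bind through Nlrp3, had few reads for Nlrp3 itself. Of 7 listed genes 5 were tested, 1 was higher and 1 lower, with a median of -0.40; Nlrp3 had 82 reads over all libraries and was not tested. Pycard, its adaptor, fell from 1.63 ± 0.29 to 0.854 ± 0.136 CPM without overlap (-0.88 on the log2 scale, SE 0.17; edgeR, adjusted p = 0.00409). Nek7, a kinase that licenses its assembly, rose from 112 ± 11.6 to 138 ± 8.34 CPM (0.31, SE 0.07, edgeR adjusted p = 0.0128), and the cytokine Il18 was at -0.49 (SE 0.17, edgeR adjusted p = 0.0538). Macrophages express these genes. Their summed markers, scaled without TMM factors, were lower in 1C-MIM, at 101 to 154 CPM against 179 to 353 CPM in Control. The part of macrophages in the level of Pycard was not tested.

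**Figure D4:**
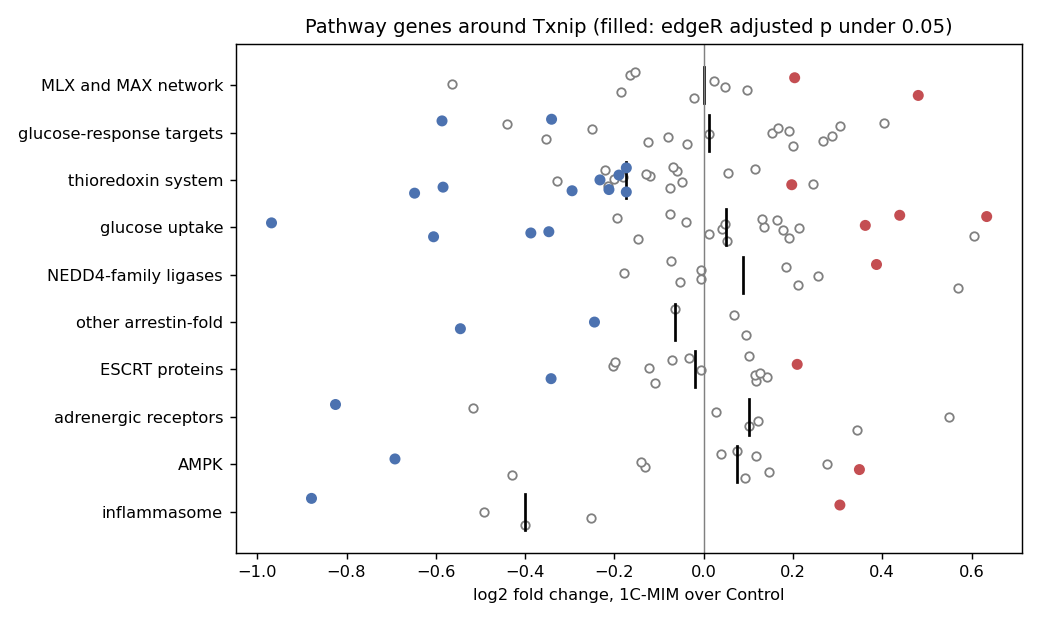
Log2 fold change of each tested gene in 10 gene lists around Txnip and its relatives; filled points passed the test (red higher, blue lower), black bars are list medians, and points are spread vertically only to be seen. In the thioredoxin system 8 of 23 genes are lower and 1 higher with all libraries (3 lower with the length trend removed, not drawn), while the MLX and MAX network and the glucose-response targets have medians of 0.00 and 0.01.

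Among 11793 genes with a mean log2 CPM of at least 0, those that followed Txnip most closely from library to library, after centring each group, were Tbx2 (r = 0.96, rho = 0.82), Lrch4 (0.96, 0.72), Mylip (0.96, 0.59), Rassf9 (0.96, 0.84) and Rin2 (0.95, 0.61). Control 1 and Control 3, the extremes of Txnip, carried part of this likeness: without both r was 0.87 for Tbx2, 0.84 for Rassf9 and 0.59 to 0.66 for Lrch4, Mylip and Rin2. None of these 5 passed the test between the groups. Mylip, a ubiquitin ligase for lipoprotein receptors, was at 0.32 (SE 0.11, edgeR adjusted p = 0.0550), and Rassf9 at 0.70 (SE 0.26, edgeR adjusted p = 0.0651).

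The nearest genes to Arrdc3 by the same measure were Tmem45b (r = 0.96, rho = 0.90), Gnai1 (0.93, 0.83), Tmem17 (0.92, 0.95), Dusp22 (0.92, 0.81) and Prkar2b (0.92, 0.93). Their r stayed between 0.78 and 0.91 without 1C-MIM 1 and 1C-MIM 3, the extremes of Arrdc3. Gnai1, an inhibitory G protein subunit, was at 0.37 (SE 0.13, edgeR adjusted p = 0.0518), and none of the 5 passed the test. The nearest genes to Mlxip were Upf2 (r = 0.97, rho = 0.95), Foxo3 (0.96, 0.95), Ddi2 (0.95, 0.95), Ncoa4 (0.94, 0.92) and Cep85l (0.94, 0.96). Of these, Upf2, a factor of nonsense-mediated decay, rose by 0.29 (SE 0.06, edgeR adjusted p = 0.00496), Foxo3, a forkhead factor of muscle atrophy, by 0.67 (SE 0.20, edgeR adjusted p = 0.0309) and Ddi2, a protease, by 0.64 (SE 0.15, edgeR adjusted p = 0.0144). Without 1C-MIM 3 and Control 5, the extremes of Mlxip, r was 0.76 to 0.93 for the 5 genes. These likenesses share libraries, scaling and the length trend, and are descriptions.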

How the data were processed

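Total RNA of quadriceps was sequenced in 10 libraries, numbered in the labels as separate animals; RNA harvest and library preparation were done by Active Motif, per the labels. For each RefSeq transcript, 33984 in all, the authors deposited a count, an FPKM and a TPM value, per the file headers. The submitters' processing notes name STAR, featureCounts, DESeq2 1.28.0, Subread 2.0.1, bedtools 2.30.0, Salmon 1.5.2, StringTie 2.2.1, Picard 2.27.4, Trim Galore 0.6.7, SAMtools 1.15.1 and the build GRCm39, with no role or order. How the counting treated strand and which filters it used are not stated in the sources. The deposited counts are whole numbers without normalization, and reads that fit several isoforms of a gene are counted for each. The deposited FPKM values served only to recover transcript lengths, and the deposited TPM values only to compare levels between genes.

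For every symbol the transcript with most counts over the 10 libraries was kept, which left out 45.3 to 47.4% of transcript counts. Of 24063 symbols 19459 had a read and 13880 passed filterByExpr. The groups were compared with edgeR 4.0.16 (R 4.3.3), TMM scaling, robust quasi-likelihood F tests and Benjamini-Hochberg adjustment over all tested genes, at 0.05; log2 CPM used a prior count of 2. Intervals of folds are 95%, from the SE with a normal approximation. The design, fitted without a replicate block, and the test were checked on simulated data. No 2 libraries were identical. Upstream windows came from RefSeq tables of GRCm38.p6. Figures and single values used SciPy 1.17.1 and matplotlib 3.10.9.

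The genes and the lists were chosen with earlier results of these data known. Named were all 7 genes, the 3 genes of smallest p in each of 10 pathway lists, and the 5 genes most like each called gene; exceptions are stated. The listed names Mycl1, Tkfc and Adgre1 were read as Mycl, Dak and Emr1, the symbols of the tables. Alternatives were other scalings, filters and tests (DESeq2 1.42.0, limma-voom from limma 3.58.1), blocks, libraries left out, other transcripts, removal of the length trend by a spline with 3 inner knots, and a threshold of 0.1. Their use on the listed genes, and the variation without Control 1, were added after seeing the data.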

Additional observations from a re-analysis of the deposited data

How the results depend on the processing

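Txnip passed the threshold in all 25 alternatives, with log2 fold changes of 0.48 to 0.69. Arrdc1 passed it in none of 25. Arrdc3 kept its call in 17 of 24 and Mlxip in 23 of 25. No member changed sign in any alternative. The calls of members that changed were these. With library totals as the scaling, Arrdc4 passed at -0.28 (edgeR adjusted p = 0.0454). Without Control 1 and Control 5, Arrdc2 passed at 0.78 and Arrdc3 was lost at 0.52. With the length trend removed, Arrdc3 was lost at 0.42 and Mlxip at 0.13, and with its second transcript Mlxip was lost at 0.60. Leaving out 1 library at a time gave Arrdc3 values of 0.39 to 0.60 (edgeR adjusted p 0.00826 to 0.0710).

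The counts over all genes, 1357 higher and 1642 lower, became 606 and 2896 with library totals, which shift the median log2 fold change to -0.07, and 832 and 976 without Control 1 and Control 5. An adjusted p under 0.1 gave 2114 higher and 2363 lower, and the length trend removed 965 and 1292. Leaving out 1 library gave 739 to 1558 higher and 941 to 1885 lower; 1C-MIM 4 left 739 and 941, 1C-MIM 3 left 843 and 1057, and without Control 4 there were 902 higher. Of the 30 listed genes named, 8 of 20 called ones passed in every alternative. Of the other 10, 9 passed in at least 1, but the alternatives include the threshold of 0.1. There these 9 passed by the adjusted p of the main fit, and Adra1a passed nowhere else. Vps26a changed sign with library totals (-0.0087). Of 280 list counts, 84 moved by over 1.5 times, or from none to some or the reverse.

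Same-numbered libraries correlated at -0.08, 0.12, 0.06, 0.12 and 0.39 in their deviations from the group means, and libraries of unlike number at -0.37 to 0.38. These values do not settle whether the numbers mark pairs. With the replicate number as a block, Txnip was at 0.64 (edgeR adjusted p = 0.000655) and Arrdc3 at 0.48 (edgeR adjusted p = 0.00179). Mlxipl passed at 0.19 (edgeR adjusted p = 0.0201), and 1932 genes were higher and 1965 lower. Not every library correlated best with its own number. Counts of 124 to 330 reads a library limit Arrdc1 and Arrdc4, the low members of the set.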

Other observations

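The members that did not pass the test had their own nearest genes from library to library, chosen after their values were seen and by the same centred measure over 10 libraries. Arrdc2 varied most like Per1, a core clock repressor that glucocorticoids also induce (r = 0.97, rho = 0.96, and r = 0.96 without Control 1), Naf1 (0.96) and Gnpnat1 (0.96). Among the 5 genes nearest to Arrdc4 were Tsc22d3, a classical glucocorticoid target (r = 0.95, rho = 0.94, and r = 0.91 without Control 1), and Per1 (0.94, 0.81, and 0.82). Arrdc1 varied most like Psmg4, a proteasome assembly factor (r = 0.95, rho = 0.94), and Mlxipl most like Leng8 (r = 0.96, rho = 0.94). Per1 and Tsc22d3 did not pass the test between the groups (edgeR, 0.08 with an SE of 0.27 and adjusted p = 0.853 for Per1, and -0.35 with an SE of 0.17 and adjusted p = 0.146 for Tsc22d3, on the log2 scale). No label gives the hour of collection, and no relation to it was tested.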
